A study of Mus musculus with 11 samples.

Results

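The transcripts of 10 splicing factor genes were followed in mouse embryonic stem cells (ESCs). Members were chosen by gene symbol, as the rows Srsf1, Srsf2, Srsf3, Srsf4, Srsf5, Srsf6, Srsf7, Srsf9, Tra2a and Tra2b, and make up 10 of the 23284 genes listed in every library. Their RNA was measured in 11 libraries that fall into 5 groups. The ESCs were WT or lacked functional Tet1, Tet2 and Tet3, the dioxygenases that oxidise 5-methylcytosine (triple knockout, TKO). Both genotypes were sampled untreated (0 h) or 4 h into exposure to 10 µg/ml α-amanitin, which inhibits RNA polymerase II. Each of these groups had 2 libraries of ribodepleted total RNA, and 3 more libraries were made from polyadenylated RNA of WT ESCs, whose labels give no treatment. All cells were grown on gelatin in serum with leukemia inhibitory factor. The treatment protocol names water as the vehicle, whereas the 0 h libraries are labelled as not treated. The TKO cells came from an earlier study, and the labels do not give the strain or the number of clones, so genotype and cell line cannot be told apart. The α-amanitin experiment was made in biological duplicate by the study's methods; for the polyA libraries the labels do not name separate cultures, and p-values there measure only the spread between those libraries.

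SR proteins bind exonic enhancers in pre-mRNA through RNA recognition motifs (RRMs) and recruit the spliceosome through a domain rich in arginine-serine repeats, the RS domain. Phosphorylation of that domain by SRPK and CLK kinases sets their nuclear import and their release from nuclear speckles. Many SR genes limit their own output by splicing in a poison exon, which sends the transcript to nonsense-mediated decay (NMD), so that their mRNA levels report both transcription and this feedback.

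The genes were found at 10 separate entries of the GENCODE vM1 annotation of NCBIM37, the build known as mm9 to which the reads were aligned. Srsf6 lies at chromosome 2, 162757264 to 162762857, plus strand. Srsf5 lies at chromosome 12, 82046491 to 82051494, plus strand. Srsf3 lies at chromosome 17, 29169618 to 29180311, plus strand. Srsf4 lies at chromosome 4, 131429532 to 131457640, plus strand. To show what these genes have in common, neighbouring arginine and serine codons were counted along the coding sequence of 1 complete transcript per gene. Srsf2 held 23.5 such pairs per 100 codons, Srsf6 21.8, Srsf4 21.6 and Srsf7 20.7. Srsf5 held 17.8, Tra2b 17.4, Srsf3 15.2, Tra2a 14.2 and Srsf1 12.5. Srsf9, known for its short RS domain, held 4.05, the fewest among the members. Over 21369 genes with a complete coding sequence the median was 0.725, and 0.566% of them reached the value of Srsf9.

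The densest stretch of 30 codons is printed for some of the members, 5′ to 3′ on the coding strand, with arginine and serine codons in capitals. All of it is coding sequence and matches the NCBIM37 genome. The stretch of Srsf5 lies within exon 8 at chr12:82050744-82050833, and the others are joined across introns. That of Srsf6 spans exons 4 and 5 (chr2:162759573-162760027), as does that of Srsf4 (chr4:131453743-131456022). That of Srsf9 spans exons 3 and 4 (chr5:115782287-115782662), that of Srsf3 exons 5 and 6 (chr17:29178159-29178338), that of Srsf7 exons 4 to 6 (chr17:80603566-80604609) and that of Tra2b exons 2 and 3 (chr16:22254559-22255061). The arginine-serine codons run almost without a break in Srsf6 and Srsf5, with 21 and 22 pairs in 30 codons, and are scattered in Srsf9, with 7 pairs. The stretches of Srsf1, Srsf2 and Tra2a, which are not printed, hold 21, 23 and 14 pairs.
Srsf6: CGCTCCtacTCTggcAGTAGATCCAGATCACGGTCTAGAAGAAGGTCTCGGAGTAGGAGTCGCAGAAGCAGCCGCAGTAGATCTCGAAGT
Srsf5: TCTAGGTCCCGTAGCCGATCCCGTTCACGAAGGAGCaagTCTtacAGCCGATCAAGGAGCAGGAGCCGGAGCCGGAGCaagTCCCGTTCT
Srsf4: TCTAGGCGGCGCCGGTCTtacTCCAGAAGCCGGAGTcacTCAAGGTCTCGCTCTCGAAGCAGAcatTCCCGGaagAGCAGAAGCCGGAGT
Srsf9: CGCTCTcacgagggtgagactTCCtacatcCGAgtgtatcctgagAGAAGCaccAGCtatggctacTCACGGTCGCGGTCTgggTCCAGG
Srsf3: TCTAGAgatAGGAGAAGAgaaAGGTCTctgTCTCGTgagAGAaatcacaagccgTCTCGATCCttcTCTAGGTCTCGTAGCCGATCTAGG
Srsf7: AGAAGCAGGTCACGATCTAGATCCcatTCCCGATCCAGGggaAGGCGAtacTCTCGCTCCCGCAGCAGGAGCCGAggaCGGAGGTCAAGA
Tra2b: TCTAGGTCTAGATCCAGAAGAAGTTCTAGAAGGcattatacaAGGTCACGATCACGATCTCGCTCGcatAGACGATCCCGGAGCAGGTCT

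GENCODE vM1 annotates 7 NMD transcripts in 5 members, namely Srsf1, Srsf2, Srsf3, Srsf5 and Tra2b. The files hold 1 value per gene, summed over isoforms, so productive and NMD transcripts could not be separated. Exons of 3 members share bases with a gene on the opposite strand: Srsf2 with Mfsd11, Srsf1 with Gm11508 and Srsf4 with Gm12992. The libraries were strand-specific, but the strand setting of the counting is not given in the sources used here, and values of these genes are uncertain to that extent.

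Values are TPM, in which read counts are corrected for gene length and expressed as a share of the library, so that levels of different genes can be compared. Reads recovered from them totalled 72639837 to 82129168 in the polyA libraries and 25507874 to 29781366 in the ribodepleted libraries. The genotype labels were checked first: Tet1 was lower in TKO at 0 h by a log2 change of -2.11 and Tet2 by -2.64 (limma, adjusted p = 1.45e-06 and 3.25e-07), while Tet3 did not pass (log2 change 0.00). All 8 ESC markers examined were above 1 TPM in every group and summed to between 4288 and 13350 TPM, against 13.2 to 72.7 TPM for 8 fibroblast markers and 7.44 to 12.1 TPM for 8 markers of differentiated cells. Rpph1 and Rmrp, the RNAs of ribonucleases P and MRP, took 12.2% to 14.7% of the TPM of ribodepleted libraries and 0.001% of polyA libraries. That share was higher at 4 h (13.2% to 14.7%) than in the same genotype at 0 h. Its part in the differences between scalings was not tested. Each ribodepleted library was rescaled with a size factor taken as its median ratio, over genes, to the geometric mean of the libraries (scaled TPM). Each direction below was compared with deposited TPM and with quantile normalisation. All of these are relative measures: a loss shared by all transcripts after α-amanitin is not visible in them, and fewer cells cannot be told apart from less RNA per cell.

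The members were abundant in every library. In WT at 0 h the order of deposited TPM was led by Srsf2 (SC35), a splicing activator that stays mainly in the nucleus, at 662 and 679 TPM in the 2 libraries. Srsf1, the founding SR protein, followed at 419 and 402 TPM, and Srsf5 at 418 and 391 TPM. Srsf3, the smallest SR protein, was at 382 and 373 TPM, and Srsf6 at 299 and 289 TPM. Srsf1 and Srsf5 overlapped and could not be ranked against each other.

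Srsf7, a zinc knuckle protein that couples splicing to export, was at 250.4 and 240.1 TPM in the same libraries. Tra2b was at 215 and 198 TPM and Tra2a at 203 and 197 TPM. These homologues of Drosophila transformer-2, which bind GAA-rich enhancers, overlapped as well. Srsf9 came next at 155 and 163 TPM, and Srsf4, the largest SR protein, was lowest at 53.9 and 47.7 TPM. Together the 10 transcripts made up 3018 ± 54.6 TPM in WT at 0 h (SD, n = 2), or 0.302% of all TPM. Their sum ran from 2888 to 2904 TPM in WT at 4 h. In TKO it ran from 2895 to 2949 TPM at 0 h and from 2677 to 2856 TPM at 4 h, and in the polyA libraries it was 3660 ± 18.1 TPM (SD, n = 3). All 10 passed the filter on low values in both fits.

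**Figure D1:**
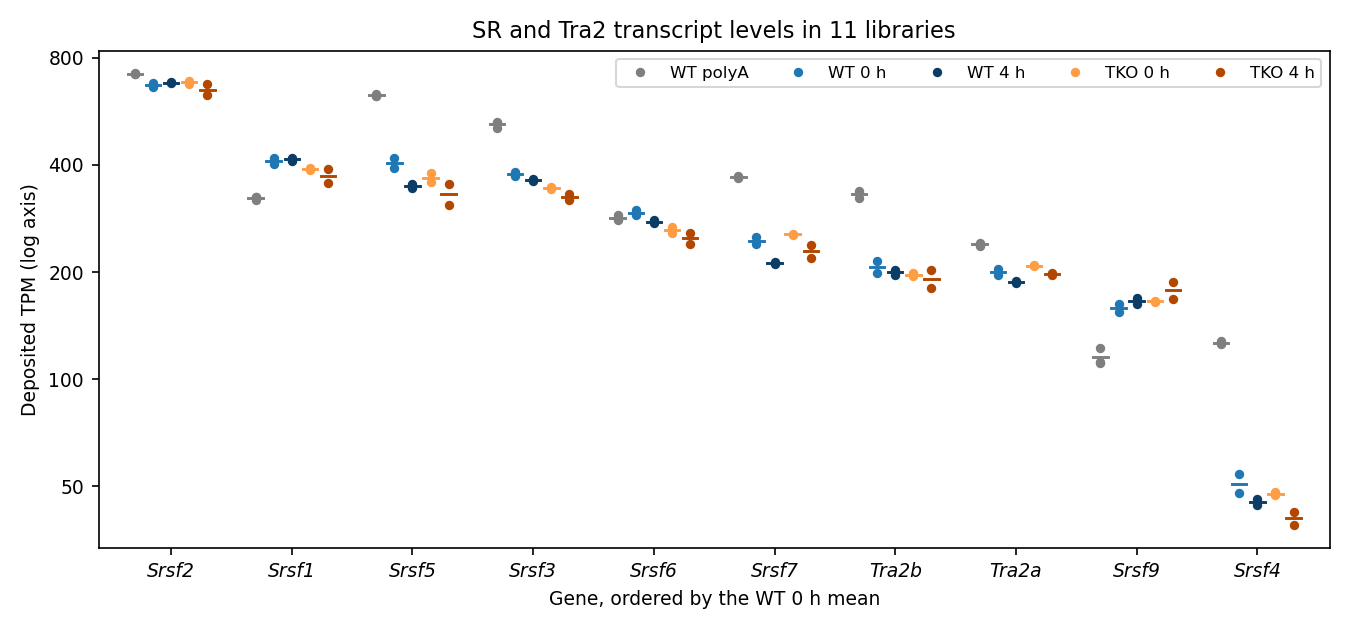
Deposited TPM of the 10 members in all 11 libraries, on a log axis. Points are libraries, short bars are group means and colours are the 5 groups. Srsf2 is highest and Srsf4 lowest in all 4 ribodepleted groups, and the polyA libraries depart most from the ribodepleted ones at Srsf4, where 125 to 128 TPM stand above 38.8 to 53.9 TPM.

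The widest differences among members were those between the polyA and the ribodepleted libraries. To compare polyadenylated with total RNA, the 3 polyA libraries were set against the 2 WT 0 h ribodepleted libraries. This comparison had size factors and a fit of its own. The selection and the sequencing experiment changed together and cannot be told apart. The sample titles name the cells of both sets only as WT ESC. Of the 10 members, 6 were higher in polyA RNA and 3 lower (limma, adjusted p under 0.05), where 40.1% of the 12481 genes tested were higher and 40.8% lower. The median change of the members was 0.26 on the log2 scale, against -0.01 over all genes tested. Past a 1.5-fold change, 1 member was higher and 0 were lower, against 18.7% and 16.4% of all genes. With deposited TPM 4 members were higher and 0 lower past that limit, against 22.2% and 13% of genes, and after quantile normalisation 2 and 0, against 20.2% and 14.8%, in counts added after the data were seen.

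Among the SR proteins with an additional RRM-like domain, Srsf4 was at 125, 126 and 128 TPM in polyA RNA against 53.9 and 47.7 TPM in ribodepleted RNA. Its libraries did not overlap, and the log2 change was 1.20 (SE 0.04, adjusted p = 5.56e-08). Srsf5 was at 627, 634 and 625 TPM against 418 and 391 TPM, a log2 change of 0.53 (SE 0.04, adjusted p = 1.85e-06). Both were higher in every polyA library. In the other direction, Srsf9 was at 111, 112 and 122 TPM against 155 and 163 TPM, a log2 change of -0.56 (SE 0.06, adjusted p = 2.91e-05). Srsf1 was at 325, 319 and 326 TPM against 419 and 402 TPM, a log2 change of -0.45 (SE 0.04, adjusted p = 5.93e-06). Srsf6 was the smallest of these differences, with 279, 289 and 282 TPM against 299 and 289 TPM and a log2 change of -0.15 (SE 0.03, adjusted p = 0.00288), and it did not pass with deposited TPM (log2 change -0.05, adjusted p = 0.18).

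Among the members with a single RRM, Srsf3 was at 525, 507 and 529 TPM in polyA RNA against 382 and 373 TPM, a log2 change of 0.36 (SE 0.04, adjusted p = 5.28e-05). Srsf7 was at 370.1, 373 and 368 TPM against 250.4 and 240.1 TPM, a log2 change of 0.49 (SE 0.03, adjusted p = 1.88e-06). Srsf2, the most abundant member, was at 724, 723 and 721 TPM against 662 and 679 TPM. After scaling its groups overlapped and its log2 change was 0.00 (95% confidence interval -0.09 to 0.10, adjusted p = 0.92), with 0.11 in deposited TPM (adjusted p = 0.00655) and -0.03 after quantile normalisation. Tra2b was at 334, 323 and 337 TPM against 215 and 198 TPM, a log2 change of 0.58 (SE 0.04, adjusted p = 2.81e-06). Tra2a, its paralogue, was at 239, 237 and 242 TPM against 203 and 197 TPM, a log2 change of 0.15 (SE 0.04, adjusted p = 0.00357). Under all 3 scalings 8 of the 10 members passed in the same direction, the exceptions being Srsf2 and Srsf6. The share of all genes that did so was not counted. With size factors alone 40.1% of genes were higher and 40.8% lower.

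Because of these differences the order of the members was not the same in polyA and ribodepleted RNA. In polyA RNA Srsf2 still led, with 722 ± 1.72 TPM (SD, n = 3), but Srsf5 and Srsf3 were next and Srsf1 held the sixth place, where it overlapped Tra2b. Srsf4 and Srsf9 exchanged places at the bottom. Shares of the members' own summed TPM were computed from deposited values, and a single size factor per library leaves them as they are. The share of Srsf1 was 13.6 ± 0.16% in WT 0 h ribodepleted RNA (SD, n = 2) and 8.82 ± 0.070% in polyA RNA (SD, n = 3). Srsf9 had 5.26 ± 0.28% and 3.14 ± 0.15%, and Srsf4 1.68 ± 0.11% and 3.46 ± 0.034% (same n). The share of Tra2a was 6.63 ± 0.030% and 6.54 ± 0.027%, the smallest difference among the members.

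**Figure D2:**
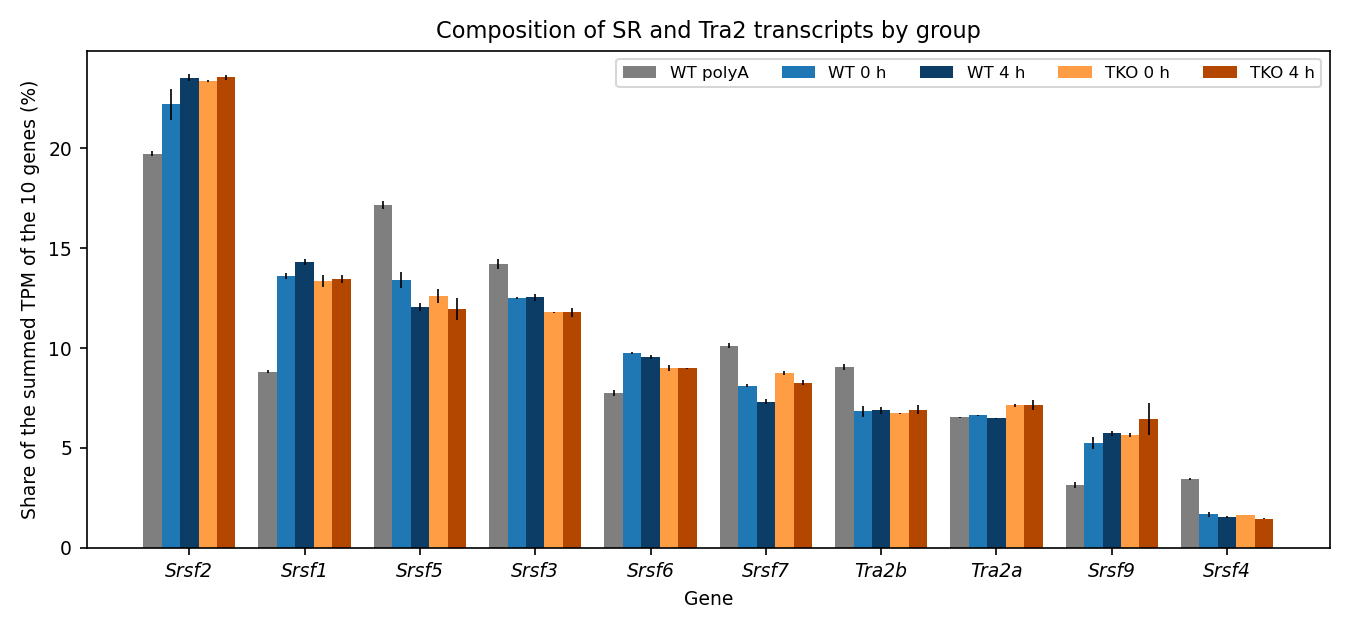
Share of each member in the summed TPM of the 10 members, in percent, by group. Bars are group means and lines are SD (n = 3 for polyA, n = 2 for the other groups). Srsf1, Srsf2, Srsf6 and Srsf9 take smaller shares in polyA RNA than in any ribodepleted group, and Srsf3, Srsf4, Srsf5, Srsf7 and Tra2b take larger ones.

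To ask how the members differ on loss of the Tet enzymes, TKO and WT were compared at 0 h. Of the 10 members, 6 were lower in TKO and 0 higher (limma on scaled TPM, adjusted p under 0.05), where 28.2% of the 12467 genes tested were lower and 27.8% higher. The members that passed were Srsf1, Srsf3, Srsf4, Srsf5, Srsf6 and Tra2b, by 10.8% to 16.4%, and no member passed 1.5-fold. Deposited TPM left 2 of them, where 17.6% of genes were lower and 33.4% higher, and quantile normalisation 3, where 29.1% were lower and 27% higher. The median change of the 10 members minus that of all genes was -0.15 on the log2 scale with size factors. It was -0.14 for deposited TPM and -0.02 for quantile-normalised values. Of the 8 ESC markers 5 were lower and 2 higher in TKO, with Zfp42 at -2.08 and Klf4 at -0.98, and of 5 fibroblast markers tested 2 were higher and 1 lower. Their part in the members' changes was not tested.

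Srsf6, a regulator of alternative exons, was at 289.8 and 291 scaled TPM in WT and at 249 and 237 in TKO. Both TKO libraries lay below both WT libraries, and the log2 change was -0.26 (SE 0.04, adjusted p = 0.0011). Srsf3, which binds CU-rich sequence and acts in splicing and export, was at 370.0 and 376 scaled TPM in WT and at 323 and 315 in TKO, a log2 change of -0.23 (SE 0.05, adjusted p = 0.00278). Srsf6 and Srsf3 passed under all 3 scalings, with -0.16 and -0.13 in deposited TPM (adjusted p = 0.0148 and 0.0175) and -0.12 each after quantile normalisation (adjusted p = 0.0356 and 0.013). Both also passed at an adjusted p under 0.05 in the 14 alternatives that gave a change per gene, and neither reached 1.5-fold.

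Srsf5 was at 405 and 394 scaled TPM in WT and at 352 and 329 in TKO, a log2 change of -0.23 (SE 0.05, adjusted p = 0.0058). Srsf4 was at 52.3 and 48.1 against 44.7 and 43.5 scaled TPM, a log2 change of -0.18 (SE 0.05, adjusted p = 0.0152). Srsf1 was at 407 and 406 against 360.2 and 362 scaled TPM, a log2 change of -0.17 (SE 0.04, adjusted p = 0.00847). For each of these the genotypes did not overlap in scaled TPM. In deposited TPM their changes had the same sign and did not pass, at -0.14, -0.09 and -0.07 (adjusted p = 0.104, 0.32 and 0.221), and Srsf4 passed after quantile normalisation at -0.15 (adjusted p = 0.0359).

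Tra2b was at 208 and 199.7 scaled TPM in WT and at 185 and 179 in TKO, a log2 change of -0.16 (SE 0.05, adjusted p = 0.0234). In deposited TPM it was -0.07 and did not pass (adjusted p = 0.37). Tra2a, at 197 and 199 against 194 and 191 scaled TPM, did not pass (log2 change -0.04, 95% confidence interval -0.14 to 0.06). Srsf2, Srsf7 and Srsf9 did not pass either, with log2 changes of -0.07, -0.04 and -0.03, and the genotypes overlapped for Srsf9. The signs of these and of Tra2a turned positive in deposited TPM, between 0.03 and 0.06, and after quantile normalisation, between 0.06 and 0.11. Fewer members passed without TKO 0 h replicate 2, and how many of all genes passed in that fit is not given here. Over the 14 alternatives, leaving out single libraries included, the log2 change of Srsf3 ran from -0.26 to -0.12. That of Srsf6 ran from -0.30 to -0.12, Srsf5 from -0.28 to -0.10 and Srsf4 from -0.25 to -0.09. Srsf1 ran from -0.20 to -0.03 and Tra2b from -0.20 to -0.07.

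**Figure D3:**
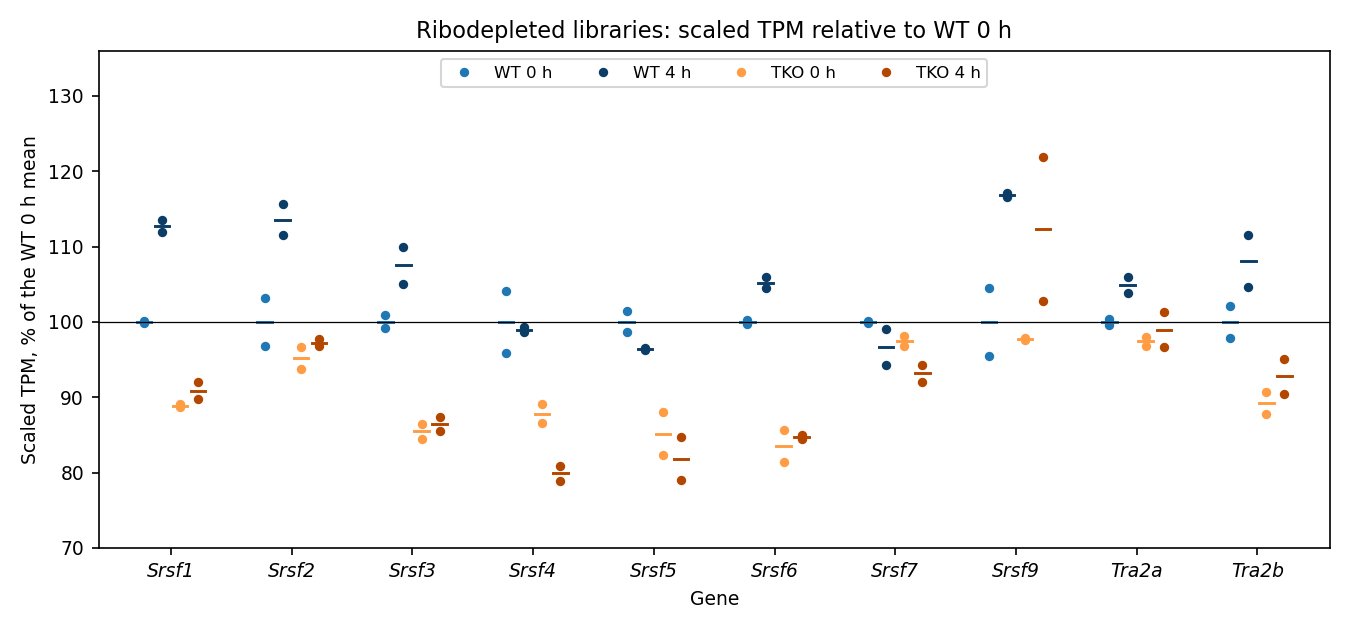
Scaled TPM of each member in the 8 ribodepleted libraries, in percent of its WT 0 h mean. Points are libraries and short bars are group means (n = 2). Both TKO libraries at 0 h lie below both WT libraries at 0 h for every member but Srsf9, though Srsf2, Srsf7 and Tra2a did not pass. How many of all genes separate in this way was not counted. The Srsf9 libraries of TKO at 4 h lie apart from each other.

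At 4 h of α-amanitin, TKO was compared with WT in the same way. Of the 10 members, 7 were lower in TKO and 0 higher, where 30.3% of genes were lower and 29.1% higher. They were those of the 0 h comparison and Srsf2. The comparisons at 0 h and 4 h use separate libraries of the same genotypes, but share a single fit and its estimate of spread. Again 1.5-fold was not reached. Here the scaling mattered more: 3 members were lower with deposited TPM (Srsf1, Srsf3 and Srsf6), where 16.6% of genes were lower and 40.3% higher. After quantile normalisation Srsf4 was lower and Srsf7 and Tra2a were higher in TKO, where 29.3% of genes were lower and 26.8% higher. Deposited TPM placed the median of all genes at 0.14, size factors at -0.01. Relative to the all-gene median, the members' median was -0.23 (size factors), -0.21 (deposited TPM) and -0.01 (quantile).

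Srsf3 was at 410.3 and 392 scaled TPM in WT at 4 h and at 319 and 326 in TKO, a log2 change of -0.31 (SE 0.05, adjusted p = 0.00041). Srsf6 was at 308 and 304 against 247 and 245 scaled TPM, a log2 change of -0.31 (SE 0.04, adjusted p = 0.000334). Srsf1 was at 461 and 455 against 374 and 364 scaled TPM, a log2 change of -0.31 (SE 0.04, adjusted p = 0.000284). The genotypes did not overlap for any of them. In deposited TPM the 3 changes were -0.15 each (adjusted p = 0.0069, 0.0176 and 0.0208), and after quantile normalisation they were -0.08, -0.09 and -0.07 and did not pass (adjusted p = 0.0511, 0.0818 and 0.21).

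Srsf4 was at 49.5 and 49.8 scaled TPM in WT and at 40.6 and 39.6 in TKO, a log2 change of -0.30 (SE 0.05, adjusted p = 0.00106), with -0.25 after quantile normalisation (adjusted p = 0.00363) and -0.15 in deposited TPM (adjusted p = 0.099). Srsf5, Srsf2 and Tra2b changed by -0.24, -0.22 and -0.22 on the log2 scale (adjusted p = 0.0047, 0.00575 and 0.00559). None of these passed with deposited TPM or after quantile normalisation. Srsf7 was at 240.0 and 229 scaled TPM in WT and at 229 and 223 in TKO, with overlap and a log2 change of -0.05, against 0.11 in deposited TPM (adjusted p = 0.0907) and 0.12 after quantile normalisation (adjusted p = 0.0332). Srsf9 changed by -0.06 and Tra2a by -0.08, and neither passed. Both were positive under the other scalings.

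**Figure D4:**
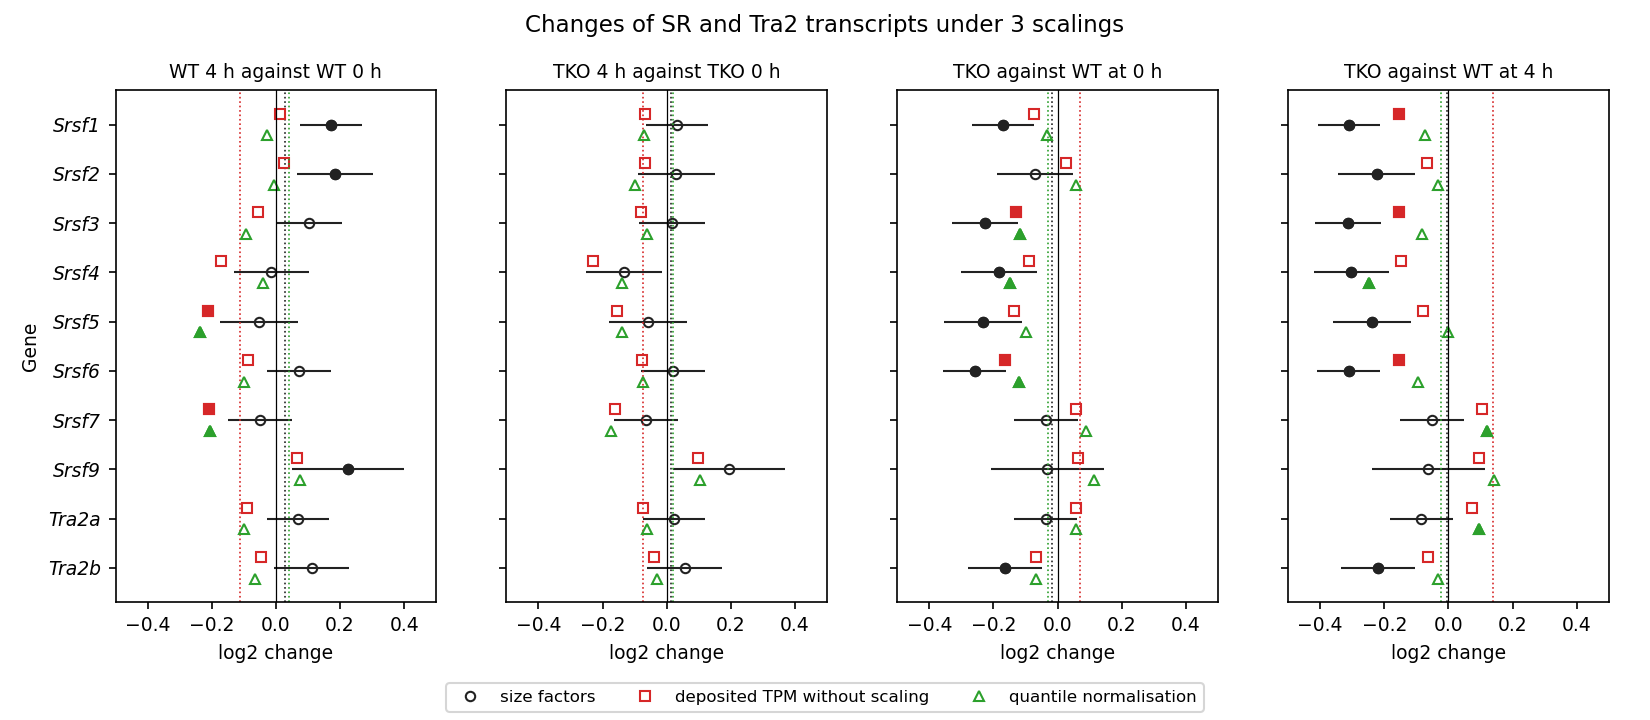
Log2 change of each member in 4 comparisons of ribodepleted libraries under 3 scalings. Black points are the fit on size factors with its 95% confidence interval, red squares deposited TPM and green triangles quantile normalisation; filled symbols passed at an adjusted p under 0.05, and dotted lines are the median of all genes tested under the same scaling. Filled symbols of all 3 kinds stand together for Srsf3 and Srsf6 in TKO against WT at 0 h, and in no other row.

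To ask which of these transcripts are depleted under α-amanitin, WT cells at 4 h were compared with WT at 0 h. These libraries also served as the WT side of the comparisons above. How far transcription was inhibited by 4 h was not tested. With size factors, 3 of the 10 members were higher at 4 h and 0 lower, where 21.9% of genes were higher and 15.8% lower. The direction depended on the scaling. With deposited TPM 0 members were higher and 2 lower, where 3.18% of genes were higher and 25.2% lower. After quantile normalisation the counts were also 0 and 2, where 12.1% of genes were higher and 11.3% lower. No member passed under all 3 scalings. The all-gene median was 0.03 (size factors), -0.11 (deposited TPM) and 0.04 (quantile). Relative to it, the members' median was 0.06, 0.04 and -0.12. No change exceeded 1.5-fold, so that no member stood among the 251 genes that fell and passed that limit.

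The members lower under the other scalings were Srsf5 and Srsf7. Srsf5 was at 418 and 391 TPM at 0 h and at 344 and 354 TPM at 4 h, all as deposited, a log2 change of -0.21 (adjusted p = 0.0372), with -0.24 after quantile normalisation (adjusted p = 0.033) and -0.05 with size factors (adjusted p = 0.465). Srsf7 was at 250.4 and 240.1 TPM at 0 h and at 214 and 210.4 TPM at 4 h, a log2 change of -0.21 (adjusted p = 0.0147), with -0.20 after quantile normalisation (adjusted p = 0.0154) and -0.05 with size factors (adjusted p = 0.394). The times did not overlap for either gene. Their sign was negative under all 3 scalings.

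The members higher with size factors were Srsf1, Srsf2 and Srsf9. Srsf1 was at 407 and 406 scaled TPM before α-amanitin and at 461 and 455 afterwards, a log2 change of 0.17 (SE 0.04, adjusted p = 0.0158). Srsf2 rose from 642 and 684 to 767 and 739 scaled TPM, a log2 change of 0.18 (SE 0.05, adjusted p = 0.0262). Both were near 0 under the other scalings, at 0.01 and 0.02 in deposited TPM and at -0.03 and -0.01 after quantile normalisation. Srsf9 rose from 149.9 and 164 to 183 and 184 scaled TPM, a log2 change of 0.23 (SE 0.08, adjusted p = 0.0475). It was positive under all scalings, with 0.07 in deposited TPM (adjusted p = 0.401) and 0.08 after quantile normalisation (adjusted p = 0.344). Fewer members passed when any single WT library was left out, and how many of all genes passed in those fits is not given here.

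The remaining WT changes did not pass under any of the 3 scalings. With size factors Srsf3 changed by 0.10, Srsf6 by 0.07, Tra2a by 0.07 and Tra2b by 0.11 on the log2 scale, and all 4 were negative under both other scalings. Srsf4 changed by -0.01 (95% confidence interval -0.13 to 0.10), and its libraries overlapped between the times.

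In TKO the same comparison gave 0 members that passed in either direction, where 0% of genes were higher and 0.265% lower. At an unadjusted p under 0.05 there were 2, Srsf4 with a log2 change of -0.13 and Srsf9 with 0.19 (adjusted p = 0.169 and 0.174), beside 3110 of all genes, and limma voom on recovered reads also gave 0. Srsf9 was at 153.5 and 153.2 scaled TPM before α-amanitin and at 161 and 191 afterwards. The latter libraries lay far apart, and without TKO 4 h replicate 1 the log2 change was 0.32 (adjusted p = 0.0142). The members' median was 0.02 against 0.01 over all genes with size factors, but -0.08 against -0.07 in deposited TPM and -0.07 against 0.02 for quantile-normalised values. Srsf5 and Srsf7 changed by -0.06 and -0.07, with -0.15 and -0.16 in deposited TPM and -0.14 and -0.17 after quantile normalisation, none of which passed.

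Whether the 4 h change differed between the genotypes was tested by the interaction of genotype and α-amanitin. No member passed, where 0% of genes were higher and 0% lower and the smallest adjusted p of any gene was 0.532. At an unadjusted p under 0.05 there was 1 member, Srsf1, with a log2 difference of -0.14 (TKO change minus WT change, 95% confidence interval -0.277 to -0.00499, adjusted p = 0.661), beside 938 of all genes, and limma voom gave 0. All 10 differences were below 0 with size factors, between -0.15 and -0.01, where 54.35% of all genes were below 0. Only Srsf1, Srsf2 and Srsf4 kept that sign under the other 2 scalings. The intervals were wide against the changes themselves: for Srsf5 the difference was -0.01 with an interval of -0.18 to 0.17, and for Srsf7 -0.02 with -0.156 to 0.125.

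Shares of the members' summed deposited TPM are the same whichever single factor a library is divided by, though quantile normalisation, which is not such a factor, can move them. Values are mean ± SD of 2 libraries and are given as descriptions, with no test. In WT the share of Srsf5 was 13.4 ± 0.39% before and 12.1 ± 0.20% after α-amanitin, and that of Srsf7 8.13 ± 0.095% and 7.32 ± 0.11%, without overlap. Srsf2 had 22.2 ± 0.79% and 23.5 ± 0.16%, and Srsf1 13.6 ± 0.16% and 14.3 ± 0.14%, again without overlap. In TKO the share of Srsf7 was 8.75 ± 0.085% before and 8.25 ± 0.12% after α-amanitin, without overlap, whereas the shares of Srsf5, at 12.6 ± 0.35% and 11.95 ± 0.56%, overlapped.

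Between genotypes at 0 h, the share of Srsf3 was 12.5 ± 0.033% in WT and 11.8 ± 0.028% in TKO, and that of Srsf6 9.74 ± 0.055% and 8.98 ± 0.15%. After α-amanitin both were again lower in TKO, Srsf3 with 12.5 ± 0.16% against 11.8 ± 0.21% and Srsf6 with 9.56 ± 0.083% against 8.99 ± 0.016%, with no overlap at either time. The shares of Srsf7, Srsf9 and Tra2a were higher in TKO. Shares are parts of 1 sum, so a fall in some raises others. With size factors these genes changed by -0.04, -0.03 and -0.04 on the log2 scale at 0 h and did not pass. Their changes were above 0 under the other scalings. Srsf7 had 8.13 ± 0.095% in WT and 8.75 ± 0.085% in TKO at 0 h, and Tra2a 6.63 ± 0.030% and 7.13 ± 0.070%. Srsf9 had 5.26 ± 0.28% and 5.67 ± 0.099%, and at 4 h the shares of all 3 were again higher in TKO without overlap. The share of Srsf2 was 22.2 ± 0.79% in WT and 23.4 ± 0.049% in TKO at 0 h without overlap, and overlapped at 4 h. The shares of Tra2b overlapped between genotypes at both times.

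Other genes of the splicing machinery were taken from lists written with earlier results of these data known, and are given as counts, to be read against the shares of all genes called in WT at 4 h and in TKO at 0 h under each scaling above. Among 10 tested genes for SR protein kinases and nuclear import, 2 were higher and 5 lower in WT at 4 h with size factors, 0 and 5 with deposited TPM, and 0 and 4 after quantile normalisation. Clk1 and Clk4, kinases that phosphorylate RS domains, fell by 0.53 and 0.44 on the log2 scale (limma, adjusted p = 0.00668 and 0.00656) and passed under all 3 scalings. Srpk1 and Tnpo3, the import receptor of SR proteins, rose by 0.19 and 0.17 with size factors and did not pass under the others (0.03 and 0.01 in deposited TPM). The list's median minus that of all genes was -0.15, -0.17 and -0.22 under the 3 scalings. Of 19 tested immediate-early genes, whose mRNAs are known to be short-lived, 16 were lower and 0 higher at 4 h, with a median of -0.42 against 0.03 over all genes, and Egr1 and Dusp1 fell by 0.77 and 0.73. Their number was 17 with deposited TPM and 13 after quantile normalisation.

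Among 22 other SR-related proteins, 2 were higher and 3 lower in WT at 4 h with size factors, 0 and 8 with deposited TPM and 1 and 5 after quantile normalisation, with Rsrc2 (log2 change -0.39) and Scaf8 (-0.25) passing under all 3 scalings. Of 33 core spliceosome genes, 21 were higher and 1 lower with size factors, but 3 and 2 with deposited TPM and 3 and 1 after quantile normalisation. Of 27 hnRNP genes, whose products often oppose SR proteins at exons, 14 were higher and 1 lower, with 3 and 2 in deposited TPM and 1 and 2 after quantile normalisation. The one that fell was Hnrnpa1, by 0.57 (adjusted p = 0.00603), and it passed under all scalings. Among 15 NMD and exon junction genes, 4 were higher and 3 lower with size factors, 1 and 6 with deposited TPM and 1 and 3 after quantile normalisation.

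In TKO against WT at 0 h, 18 of the 27 hnRNP genes and 19 of the 33 core spliceosome genes were lower with size factors, 10 and 10 with deposited TPM and 11 and 9 after quantile normalisation, while 1 and 3 were higher with size factors, 4 and 5 with deposited TPM and again 4 and 5 after quantile normalisation. Hnrnph2 and Snrpa1 had log2 changes of -0.61 and -0.60 (adjusted p = 7.42e-05 and 5.14e-05). Cwc22, a splicing factor that loads the exon junction complex, was higher by a log2 change of 2.39 (adjusted p = 1.74e-07). Cwc22 also differed between the WT sets, higher in polyA than in 0 h ribodepleted RNA by 2.01 (limma, adjusted p = 4.29e-09). Of the 33 core spliceosome genes, 19 were higher and 13 lower in that comparison. The cause of neither Cwc22 difference was tested. Of the 22 other SR-related genes, 10 were lower and 2 higher with size factors (5 and 3 with deposited TPM, 6 and 2 after quantile normalisation), and Rnps1, an exon junction component with a serine-rich domain, was higher by 0.81 (adjusted p = 2.48e-06). Of the kinases, 4 of 10 were lower and 0 higher with size factors (1 and 1, then 2 and 1, under the others), with Srpk2 at -0.59 (adjusted p = 3.55e-05). Hnrnph2, Snrpa1, Cwc22, Rnps1 and Srpk2 passed in the same direction under all 3 scalings. The members' median of -0.17 stood beside -0.21 for hnRNP, -0.17 for core spliceosome, -0.16 for other SR-related and 0.03 for NMD genes, all with size factors.

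**Figure D5:**
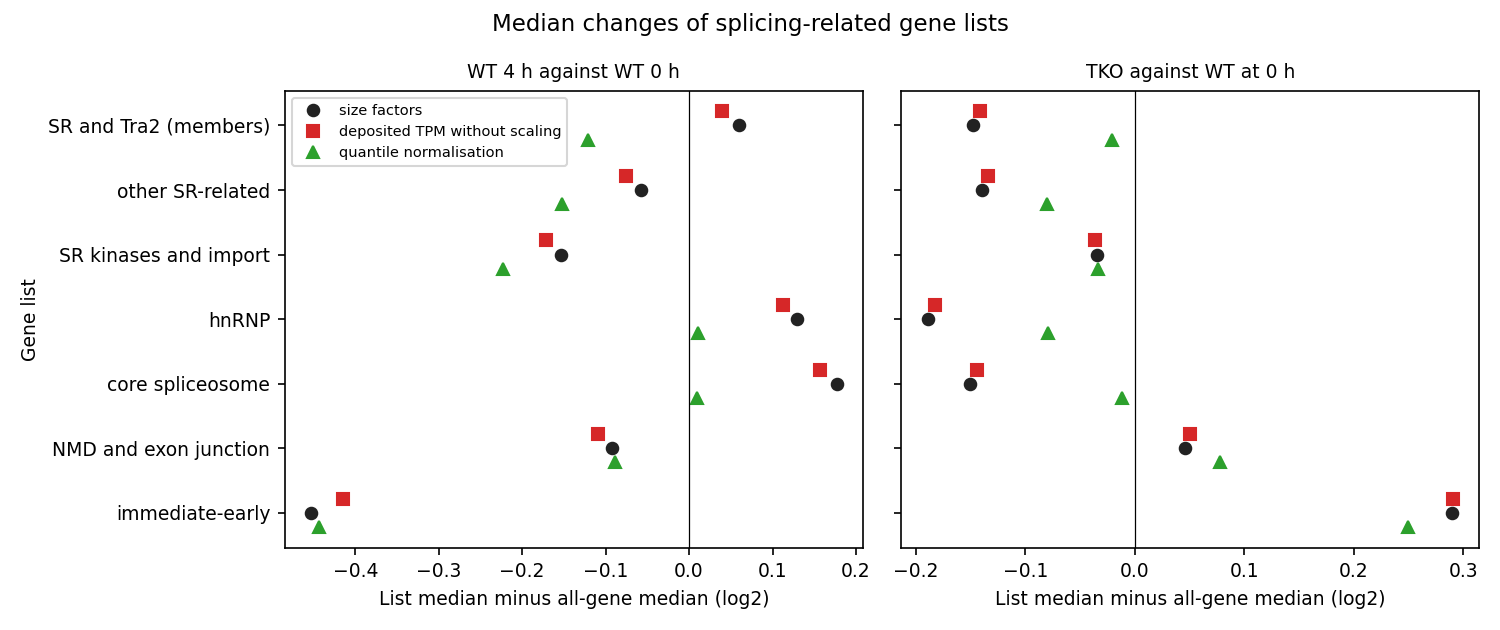
Median log2 change of the members and of 6 other gene lists minus the median of all genes tested, in WT at 4 h against 0 h and in TKO against WT at 0 h. Symbols are the 3 scalings. The members lie at 0.06, 0.04 and -0.12 for WT at 4 h, where the immediate-early genes lie between -0.45 and -0.42, and at -0.15, -0.14 and -0.02 for TKO at 0 h.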

How the data were processed

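RNA of 11 mouse ESC libraries was analysed. Per the labels and methods, the authors removed low-complexity reads with AfterQC and ribosomal and transfer RNA reads with Bowtie2, trimmed with Trimmomatic, aligned to mm9 with STAR and RefSeq genes and counted with HTSeq; versions are not given in the sources used here. The deposited values are TPM, 1 per gene and library. Whole reads were recovered from ratios of TPM between libraries for 100.0% of genes above 0 (relative tolerance 1e-07) and served for depth and replicate checks. The linear model of limma 3.58.1 (R 4.3.3, moderated variance with a trend) was applied to log2(scaled TPM + 1), the deposited values being TPM. Testing was limited to mean scaled TPM over 1 (12467 genes in 8 ribodepleted libraries, 12481 in the polyA fit), with 1 coefficient per group and no replicate block. The fold change on this scale understates that of low genes. P-values are two-sided and Benjamini-Hochberg adjusted over all genes tested, with a limit of 0.05. Replicate pairs differed by a chi-square of at least 1.53 per degree of freedom, so none was merged.

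Members and gene lists were chosen with earlier results of these data known. All 10 members were named in each comparison, and from each other list at most the 2 top and the 2 bottom passing genes by log2 change, besides Tet1, Tet2, Tet3, Rpph1 and Rmrp. The fits were tested on simulated data. Coding sequences and coordinates came from GENCODE vM1 on NCBIM37. Alternatives were other scalings (deposited TPM, quantile), pseudocounts of 0.1 and 5 TPM, no filter or a mean above 5 TPM, a replicate block, no trend, a 1.5-fold limit, limma voom on recovered reads, the 2 groups alone and leaving out each library.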

Additional observations from a re-analysis of the deposited data

How the results depend on the processing

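With 2 libraries per group, the smallest member change that passed between genotypes at 0 h was a log2 change of -0.16, and TPM alone cannot fix the level of a member against a shared shift of all transcripts. The replicate numbers did not pair the libraries (correlations of same-numbered deviations from -0.044 to 0.119), and with the replicate block the counts of members that passed were 3 and 0 for WT and TKO at 4 h against 0 h, 0 for the interaction, 6 and 7 for TKO against WT at 0 h and 4 h, and 9 for polyA RNA, as without it. A 1.5-fold limit left 0 members in WT at 4 h and 0 and 0 in TKO against WT at the 2 times under each of the 3 scalings. For polyA RNA it left 1 with size factors, 4 for deposited TPM and 2 for quantile-normalised values. These combinations with deposited TPM and quantile normalisation were chosen after seeing the data. With deposited TPM, 2 members passed in WT at 4 h against 0 h, both lower, 2 at 0 h and 3 at 4 h between genotypes. After quantile normalisation these counts were 2, both lower, 3 and 3, of which 2 were higher. Leaving out 1 library gave 0 to 1 members in WT at 4 h, 0 to 1 in TKO at 4 h, 0 for the interaction, 2 to 6 and 7 to 9 for TKO against WT at 0 h and 4 h, and 9 for polyA RNA. With a single library left in a group, that library is assumed to vary like the other groups. How many of all genes passed in those fits and with the replicate block is not given here. Whether the falls in these counts were particular to the members was not tested. Of the changes of single members under alternatives, 750 kept their direction and side of the threshold, 45 no longer passed, 9 newly passed and 66 turned in sign. The cause of these turns was not tested beyond the choice of scaling itself.

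With deposited TPM in WT at 4 h against 0 h, the log2 values that turned were Srsf3 -0.056, Srsf6 -0.086, Tra2a -0.090 and Tra2b -0.048. With deposited TPM in TKO at 4 h against 0 h, the log2 values that turned were Srsf1 -0.066, Srsf2 -0.067, Srsf3 -0.080, Srsf6 -0.077, Tra2a -0.074 and Tra2b -0.041. With deposited TPM in the interaction, the log2 values that turned were Srsf5 0.057, Srsf6 0.0091, Srsf7 0.046, Srsf9 0.031, Tra2a 0.015 and Tra2b 0.0064. With deposited TPM in TKO against WT at 0 h, the log2 values that turned were Srsf2 0.026, Srsf7 0.059, Srsf9 0.064 and Tra2a 0.058. With deposited TPM in TKO against WT at 4 h, the log2 values that turned were Srsf7 0.11, Srsf9 0.095 and Tra2a 0.073.

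After quantile normalisation in WT at 4 h against 0 h, the log2 values that turned were Srsf1 -0.028, Srsf2 -0.0073, Srsf3 -0.094, Srsf6 -0.10, Tra2a -0.10 and Tra2b -0.066. After quantile normalisation in TKO at 4 h against 0 h, the log2 values that turned were Srsf1 -0.069, Srsf2 -0.10, Srsf3 -0.061, Srsf6 -0.073, Tra2a -0.062 and Tra2b -0.029. After quantile normalisation in the interaction, the log2 values that turned were Srsf3 0.034, Srsf5 0.10, Srsf6 0.026, Srsf7 0.031, Srsf9 0.027, Tra2a 0.038 and Tra2b 0.037. After quantile normalisation in TKO against WT at 0 h, the log2 values that turned were Srsf2 0.057, Srsf7 0.089, Srsf9 0.11 and Tra2a 0.057. After quantile normalisation in TKO against WT at 4 h, the log2 values that turned were Srsf7 0.12, Srsf9 0.14 and Tra2a 0.10. After quantile normalisation in polyA RNA, the log2 value that turned was Srsf2 -0.035.

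Leaving out 1 library turned the sign of the log2 values below. Each is given from its lowest to its highest value over the single libraries left out. In WT at 4 h against 0 h, the range was Srsf4 from -0.073 to 0.044. Likewise in TKO at 4 h against 0 h, Srsf6 from -0.015 to 0.059, Tra2a from -0.010 to 0.059. Likewise in the interaction, Srsf9 from -0.15 to 0.10, Srsf5 from -0.050 to 0.052, Srsf7 from -0.062 to 0.0070. Likewise in TKO against WT at 0 h, Srsf9 from -0.10 to 0.027. Likewise in TKO against WT at 4 h, Srsf9 from -0.18 to 0.065. Likewise in polyA RNA, Srsf2 from -0.051 to 0.040. With all libraries, Srsf6 (0.020) and Tra2a (0.023) in TKO at 4 h against 0 h and Srsf2 (0.0047) in polyA RNA were positive. Their turned values were therefore the negative ones. The other changes with such a range, among them Srsf4 (-0.014), were negative with all libraries and turned positive. The interaction of Srsf5 was 0.0097 where only genes with a mean above 5 scaled TPM were tested, and with the replicate block the polyA change of Srsf2 was -0.00233.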
